A study of Chromochloris zofingiensis with 38 samples.

Results

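Of 12459 genes measured in the green alga Chromochloris zofingiensis, 194 (1.56%) were at least 8-fold lower after 24 h, both with the TOR inhibitor named AZD in the labels and with glucose. After 1 h they lay within 1 log2 unit of their comparators. Both limits hold on the scale below. The genes were chosen by the measured values of these libraries. Counts were scaled to CPM, the depth-normalised count unit, by each library's total, group means were taken, and L, the log2 ratio of 2 group means after adding 1 CPM to each, was centred on its median over the 11623 genes with a mean of at least 1 CPM. A gene was kept when L of AZD against S and of glucose against None lay within 1 of 0 at 1 h and both lay at or below -3 at 24 h. These 4 values are therefore descriptions here, with no test.

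The libraries came from wild-type cells, each made from poly(A) RNA of a pellet of a liquid culture. The groups were None (no addition), S, AZD, Glu (glucose) and GA, each at 1 h and 24 h, with 4 libraries a group except 3 for AZD at 1 h and 3 for GA at 24 h, 38 in all. S, the comparator of AZD in the rule, and GA, which joins the first letters of Glu and AZD, are not spelled out in the labels and keep their names here. All titles at 1 h carry one prefix and all at 24 h another, so the time and the prefix cannot be told apart. GA was not used in the choice of the genes, and S was not set against None in it. The tests below set GA against the other groups and S against None. The None, AZD and Glu libraries that GA is set against were used by the rule, None as a high group at 24 h and AZD and Glu as low ones. The S libraries were used by it too, as a high group at 24 h in the AZD value.

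The kinase TOR, short for target of rapamycin, promotes protein synthesis and growth when nutrients and energy suffice, and its inhibition slows growth and favours recycling of cell material. C. zofingiensis is a single-celled alga studied for its response to sugar: given glucose, it reversibly shuts down photosynthesis, takes its thylakoid membranes apart and stores lipids and the red carotenoid astaxanthin, and this response depends on the sugar kinase hexokinase. The table names genes by ID only. None of the IDs (0) came with a name or product, so no pathway could be counted among the 194, and the roles of the genes below are not given.

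Library totals ran from 12414643 to 106150532 counts. At 1 h, S replicate 1 and Glu replicate 4 lay farthest from their groups (0.75 and 0.70 as the root mean square log2 distance, against at most 0.58 for the other libraries). Both were used by the rule, and without them it kept 188 genes, all among the 194, and left out 6, among them the abundant Cz07g02100, UNPLg00440 and UNPLg00344. No 2 replicates agreed within sampling noise. Levels below are CPM on TMM-scaled library sizes, a scaling that takes most expressed genes as unchanged. Fold changes are log2 values from 1 edgeR quasi-likelihood model over all 38 libraries, with p-values adjusted by Benjamini-Hochberg over 12142 genes. All 194 genes were tested. A gene was called when its adjusted p was under 0.05. Whether replicates were grown as separate cultures is not said in the labels; if they were not, the p-values describe technical spread alone.

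**Figure D1:**
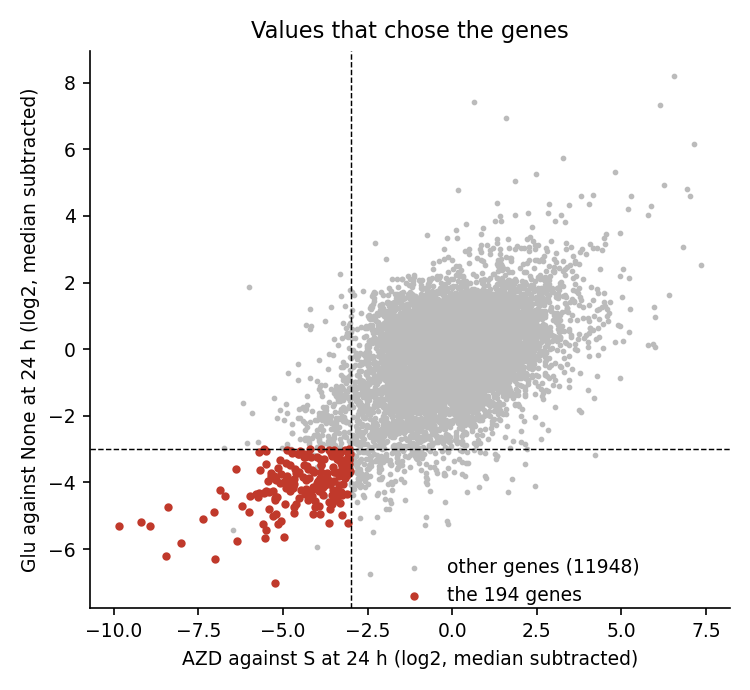
Each point is a gene that was tested, with L of AZD against S at 24 h on the horizontal axis and L of Glu against None at 24 h on the vertical axis (both log2, median subtracted). The dashed lines mark -3; the 194 chosen genes (red) fill the lower left corner, and the grey points there are genes outside the limits at 1 h.

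By the values that chose them, L at 24 h ran from -9.84 to -3.02 for AZD against S (median -4.18) and from -7.00 to -3.001 for Glu against None (median -3.95). At 1 h the medians were 0.30 for AZD and 0.03 for Glu. The AZD value was the lower of the pair in 108 genes. It was lower by 1 or more in 54, the Glu value was lower by 1 or more in 15, and in 125 genes the 2 values lay within 1 of each other. Values at or below -6 were found in 14 genes for AZD and in 3 for Glu, and 15 genes were at or below -5 in both. Across the 194 genes the values had a Pearson r of 0.49 and a Spearman rho of 0.39, over a range that the rule cuts off at -3 on both sides. Many genes stood near the threshold, 79 of them with the smaller of the 2 falls above -3.5. The 1 CPM added to each mean keeps L from falling further once a treated group is well under 1 CPM. In such genes, nearness of L to -3, or of the 2 values to each other, does not measure the size of the falls. Fitted on TMM-scaled sizes with no pseudocount of 1 CPM, the median log2 fold change was -5.71 for AZD against S and -4.65 for Glu against None. At 1 h the fitted values ran from -0.93 to 1.03 for AZD against S and from -2.02 to 1.10 for Glu against None.

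The threshold divides a continuous range. The members nearest to it were Cz06g15230 (L of -3.04 for AZD and -3.0006 for Glu) and Cz08g32160 (-3.87 and -3.0015). Fitted without the added 1 CPM, the values were -4.67 and -4.45 for Cz06g15230 and -6.05 and -3.70 for Cz08g32160. Just outside stood Cz13g00070 (-2.99 and -4.01) and Cz16g05310 (-2.98 and -4.32). At the 1 h limit, Cz07g02100 was inside, with -0.997 for AZD against S, and Cz15g17110 outside, with -1.02. A further 8 genes met the limits at 24 h and not those at 1 h, among them Cz15g17110, whose mean at 24 h was 1899.9 CPM in None, 107 in AZD, 88.4 in Glu and 2.28 in GA.

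**Figure D2:**
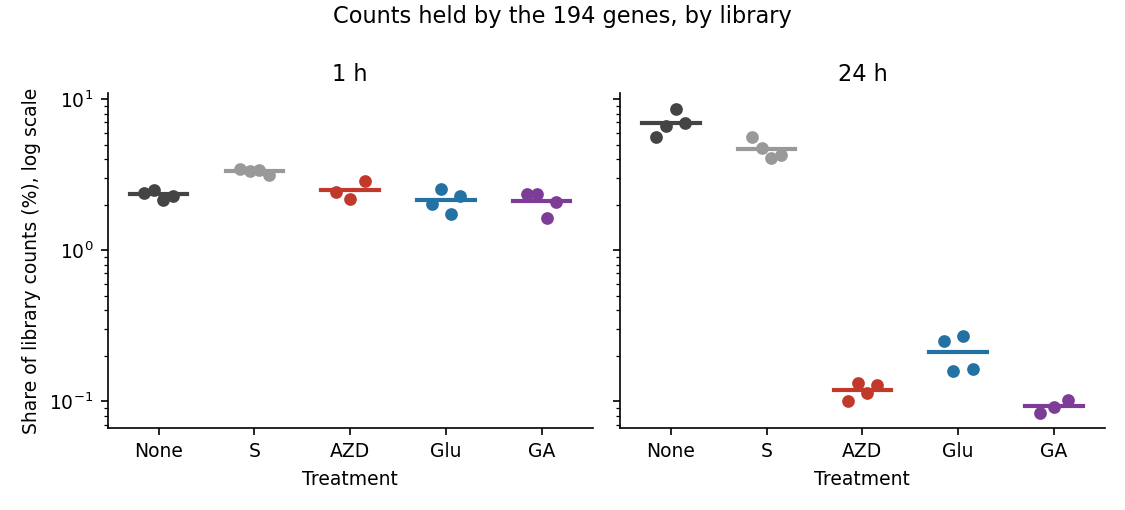
Each point is 1 library: the share of its counts (%, log scale) held by the 194 genes, by treatment at 1 h (left) and 24 h (right), with bars at the group means. At 24 h the None and S libraries lie between 4.06% and 8.64% and the AZD, Glu and GA libraries between 0.0839% and 0.271%.

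Together the 194 genes made up a sizeable part of the poly(A) RNA in None and S at 24 h and little of it in AZD, Glu and GA. In the 4 None libraries at 24 h they took 5.63%, 6.60%, 8.64% and 6.99% of the counts, and 5.65%, 4.77%, 4.06% and 4.25% in the 4 S libraries. The shares were 0.101%, 0.131%, 0.113% and 0.128% in AZD and 0.248%, 0.159%, 0.271% and 0.163% in Glu. In GA they were 0.0839%, 0.0921% and 0.102%. Every AZD, Glu and GA library was below every None and S library. For AZD and Glu this follows from the choice of the genes.

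At 1 h the shares of all groups lay between 1.63% and 3.46%. They were 2.33% ± 0.158 in None (SD, n = 4), 3.33% ± 0.141 in S (n = 4), 2.50% ± 0.345 in AZD (n = 3), 2.15% ± 0.352 in Glu (n = 4) and 2.10% ± 0.348 in GA (n = 4). The 4 S libraries were above all other libraries at that time. Without the 3 genes most abundant in None at 24 h, S held 1.64% to 2.10% and AZD 1.57% to 2.04%, so these groups overlapped. The None, Glu and GA libraries then held at most 1.51%, 1.31% and 1.36%. From 1 h to 24 h the mean CPM by library total was higher at 24 h for 189 of the genes in None and for 177 in S, against 2 in AZD, 1 in Glu and 1 in GA. These values cross the title prefix and were not tested. The rule took None and S as high groups and AZD and Glu as low ones at 24 h. The choice itself can therefore set the directions in those groups, and the share of all genes was not counted. In None the median of the genes' levels was 27.3 CPM at 1 h and 60.6 CPM at 24 h.

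A few abundant genes held much of this RNA. Cz03g21010 had the highest mean level in None at 24 h, with 11703, 14564, 25091 and 18394 CPM in the 4 libraries. It stood at 15152, 10310.2, 6191 and 7579 CPM in S, at 6.97, 15.4, 6.61 and 7.86 CPM in AZD and at 453, 298, 775 and 204 CPM in Glu. In GA it was at 39.4, 19.98 and 58.2 CPM. The AZD libraries were the lowest, GA came next, then Glu, and the ranges of the 3 groups did not overlap. GA against None gave -8.80 ± 0.57 (SE; adjusted p = 9.24e-16), GA against Glu -3.46 ± 0.44 (SE; adjusted p = 1.35e-08) and GA against AZD 2.10 ± 0.39 (SE; adjusted p = 3.68e-05). Without the 3 most abundant genes the others still held 3.66% ± 0.4995 of all counts (SD, n = 4) in None at 24 h and 0.0856% ± 0.00770 in GA (n = 3).

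Cz07g02100, the second in level, had 4871, 4717, 5944 and 6831 CPM in None at 24 h and 5829, 4380.0, 2838 and 3676 CPM in S. AZD had 169.6, 372, 303 and 405 CPM, Glu 101, 89.5, 188 and 217 CPM and GA 15.03, 11.4 and 15.7 CPM. Here GA was the lowest group, and its libraries did not overlap with any other. GA against AZD gave -4.47 ± 0.41 (SE; adjusted p = 3.71e-11), GA against Glu -3.40 ± 0.39 (SE; adjusted p = 1.31e-09) and GA against None -8.63 ± 0.50 (SE; adjusted p = 3.93e-17). At 1 h S replicate 1 stood apart, at 773 CPM against 2019 to 2075 in the other S libraries. The 2 most abundant genes thus held opposite orders of AZD and GA at 24 h.

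UNPLg00440, Cz17g15130 and Cz09g27120 came next in level. UNPLg00440 had 4392 ± 1365 CPM in None at 24 h (SD, n = 4), 3.05 ± 1.05 in AZD (n = 4), 119 ± 65.8 in Glu (n = 4) and 21.4 ± 9.42 in GA (n = 3). Cz17g15130 had 3176 ± 1110.0, 13.1 ± 3.48, 104 ± 46.7 and 43.2 ± 13.4 CPM in the same order of groups. Cz09g27120 had 1759 ± 446, 2.08 ± 0.951, 64.2 ± 29.8 and 10.4 ± 4.38 CPM. The means of all 3 followed the order of Cz03g21010, with AZD lowest, GA above it and Glu above GA, the GA and Glu libraries of Cz17g15130 overlapped, and in each GA differed from AZD (2.83, 1.72 and 2.36) and from Glu (-2.47, -1.27 and -2.63). The largest of these 6 adjusted p-values was 0.0012.

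UNPLg00440 tracked Cz03g21010 from library to library. Its estimated count was 20.1% to 28.9% of that of Cz03g21010 in the 31 libraries outside AZD and GA at 24 h, and 28.9% to 60.4% in the 7 libraries of those groups. UNPLg00344, another of the 194 genes, was at 2.75% to 5.33% of Cz03g21010 in the 31 libraries and at 0% to 1.66% in the 7. Both pairs were picked after their values were seen. Near-identical copies can be given each other's reads by the estimation, which was not checked here against a genome, so the 3 levels are uncertain as separate values.

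GA, which had no part in the choice, was low for all of these genes at 24 h. All 194 were called in GA against None, all of them lower. Of all genes tested, 75.7% were called in this comparison, 39.2% as lower. The median log2 fold change was -6.08 over the 194 genes and -0.04 over all genes, with lower quartiles of -7.31 and -1.13. In GA 187 of the 194 were at least 8-fold lower. The share of all genes at least 8-fold lower was not counted. Every GA library was below every None library for 193 of them, against 39.4% of all genes tested. The exception was Cz03g14050, which had no count in None replicate 2. The None libraries were also used by the rule, as a high group. With S as the reference, likewise used by the rule, the count was again 194 (9105 of all genes tested were called) and the median -5.50. Pellets were measured in bulk, so fewer cells with these transcripts and less of the transcripts per cell cannot be told apart.

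The low levels came close to zero in many genes. All libraries of the group were under 1 CPM at 24 h for 94 of the genes in GA, 89 in AZD and 23 in Glu, and for 0 in None and 0 in S. The median of the genes' levels was 0.774 CPM in GA, 0.762 in AZD, 2.77 in Glu, 41.5 in S and 60.6 in None. In GA 5 genes had no count in any of the 3 libraries, against 4 genes in AZD and 0 in Glu. Measured from a floor of 3 counts over the group (0.0229 CPM), these 5 were lower than in None by at least 523-fold (Cz05g14190), 537-fold (Cz03g14050), 1127-fold (Cz02g09070), 1358-fold (Cz05g17010) and 2520-fold (UNPLg00298). Cz03g14050 and Cz05g14190 are named here because they complete this count, after their values were seen. Among the 189 genes with counts in GA, fitted log2 fold changes against None ran from -13.30 to -1.90. With the 5 genes at their bound the median was again -6.08.

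Cz01g23030 had the lowest value among the genes with counts. Its libraries at 24 h had 1345, 1544, 1662 and 1669.9 CPM in None and 1493, 1320.4, 1189 and 1107 CPM in S. AZD had 31.8, 60.6, 49.9 and 67.1 CPM and Glu 182, 117, 208 and 175 CPM, while GA had 0.0711, 0.0794 and 0.275 CPM. The 3 GA libraries held 20 counts together, and the 4 None libraries 164566. Each GA library was lower than every AZD library by a wide gap, and no groups among AZD, Glu and GA overlapped. Over summed counts GA was 10067-fold below None, with an exact 95% Poisson interval of 6518- to 16481-fold that covers counting error only. The fitted value was -13.30 ± 0.64 (SE; adjusted p = 4.39e-19) against None, -8.41 ± 0.57 (SE; adjusted p = 2.92e-14) against AZD and -10.11 ± 0.59 (SE; adjusted p = 1.63e-16) against Glu. At 1 h the gene was at 256 ± 33.4 CPM in GA and 294 ± 18.3 in None (log2 -0.20 ± 0.32 SE, adjusted p = 0.594).

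UNPLg00298 had 47.5, 56.5, 71.97 and 57.8 CPM in None at 24 h, no count in the 4 AZD and the 3 GA libraries, and 1.82, 2.21, 1.47 and 0.634 CPM in Glu. Cz05g17010 had 22.2, 24.7, 43.9 and 33.7 CPM in None, 0.105, 0, 0 and 0.0602 CPM in AZD, 1.49, 1.82, 2.18 and 1.84 CPM in Glu and no count in GA. Both were thus near or at zero in AZD and GA and measurable in Glu, where no library overlapped with AZD or GA. Against Glu, GA was lower by at least 76.7-fold for UNPLg00298 (adjusted p = 2.02e-06) and by at least 80.0-fold for Cz05g17010 (adjusted p = 5.64e-12).

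The genes that fell least in GA still fell clearly against None. Cz10g14010 had 17.97, 24.8, 28.6 and 19.1 CPM in None at 24 h and 5.997, 4.31 and 7.78 CPM in GA (log2 -1.90 ± 0.26 SE, adjusted p = 7.22e-08). AZD had 0.498, 0.213, 1.0 and 0.994 CPM and Glu 0.607, 1.05, 1.21 and 0.816 CPM, so every GA library was above every AZD and Glu library and below every None library. Cz03g18180 went from 161 ± 42.2 CPM in None to 30.9 ± 6.54 in GA (log2 -2.38 ± 0.26 SE, adjusted p = 6.69e-10). Cz12g02090 went from 1381 ± 180.0 CPM to 245 ± 12.3 (log2 -2.50 ± 0.18 SE, adjusted p = 3.03e-14). Both were also higher in GA than in AZD and than in Glu.

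**Figure D3:**
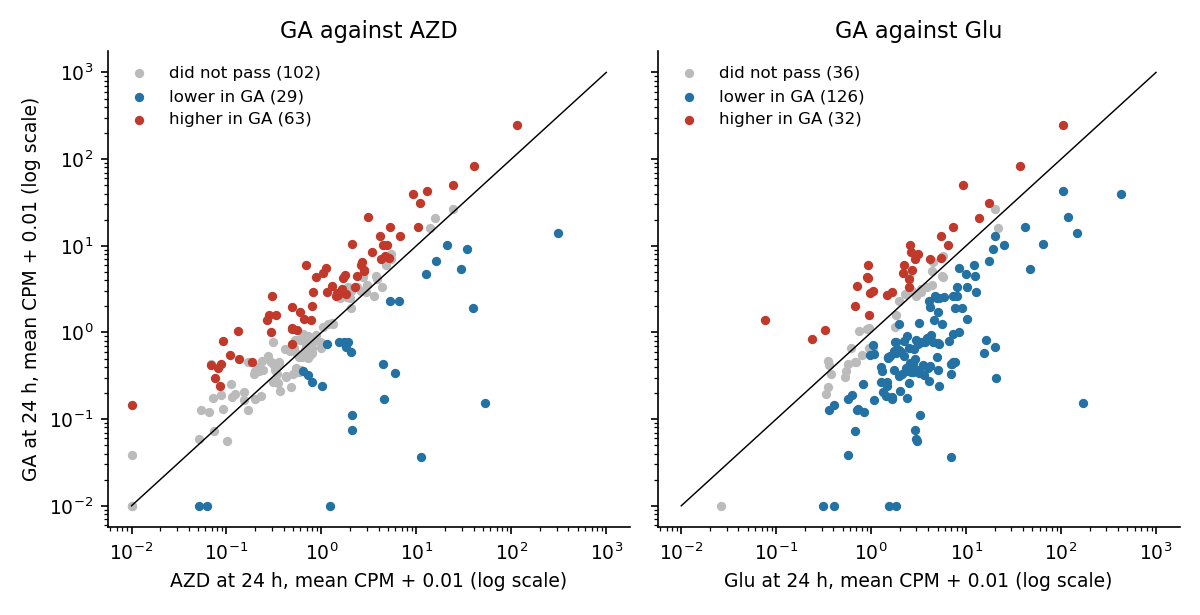
Each point is 1 of the 194 genes: its mean level in the 3 GA libraries at 24 h against that in AZD (left) or Glu (right), both in CPM plus 0.01 on log scales, with the line of equality. Colours mark the genes called lower (blue) or higher (red) in GA at an adjusted p under 0.05. With library totals in place of TMM sizes the counts on the left change to 40 lower and 45 higher.

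GA was set against each treatment at 24 h. Against Glu, 158 of the 194 genes were called (76.3% of all genes were), 126 lower (35.6% of all genes) and 32 higher (40.8%). The median log2 difference was -1.54 over these genes and 0.12 over all genes tested. At least 2-fold differences were found in 117 of the lower and 21 of the higher genes. The shares of all genes with such differences from Glu were not counted. The lower quartile of the log2 difference was -2.81 over these genes and -0.92 over all genes tested. With the 5 genes that had no count in GA at their bound, the median was -1.496. Both the GA and the Glu libraries are low here, and only the Glu libraries were chosen for it.

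Against AZD the genes stood closer, with 92 called (46.5% of all genes were), 29 lower (23.1% of all genes) and 63 higher (23.3%). Here the AZD libraries were the ones chosen as low. The split depends on the scaling, since with library totals alone 40 were lower and 45 higher (5635 of all genes tested were called). The median difference was 0.45 over these genes and 0.02 over all. At least 2-fold differences were found in 26 of the lower and 48 of the higher genes. The shares of all genes with such differences from AZD were not counted. The lower quartile of the log2 difference was -0.32 over these genes and -0.45 over all genes tested. The share of these genes called in either direction was near that of all genes for both comparisons.

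The genes were then sorted by their calls in both comparisons. GA was lower than both AZD and Glu in 28 genes (14.4%, against 12.3% of all genes tested) and higher than both in 25 (12.9% against 12.8%), shares near those of all genes. It was higher than AZD but lower than Glu in 25 (12.9% against 6.15%), and the reverse in 0 (764 of all genes, 6.29%). In 73 genes GA was lower than Glu with no call against AZD (37.6% against 17.1%), and in 7 it was higher than Glu only (3.61% against 21.7%). The remaining genes were 13 higher than AZD only (6.7% against 4.40%), 1 lower than AZD only (0.52% against 4.58%) and 22 with neither call (11.3% against 14.7%). The AZD and Glu libraries chose the 194 genes, and these shares were not tested. By group means alone GA was below both in 64 genes, between them in 86 and above both in 44, and AZD was below Glu in 158.

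The 28 genes below both held a median of 0.503 CPM in GA at 24 h, against 2.08 in AZD, 3.43 in Glu and 93.5 in None. Their fall against None had a median of -7.63. Besides Cz01g23030 and Cz07g02100, Cz02g09070 belonged to them, with 0.917, 0.744, 0.964 and 2.26 CPM in AZD, 0.347, 0.177, 0.404 and 0.665 CPM in Glu and no count in GA, at least 55.7-fold below AZD (adjusted p = 5.53e-07). Cz05g17010 was among them as well, but its call against AZD (adjusted p = 0.034) rests on 6 counts in AZD, a fold of at least 2.21, and was lost without AZD replicate 1, AZD replicate 4 or any of the 3 GA libraries. Cz03g01250 and Cz11g05100, whose AZD values lay most above their Glu values by the rule, also belonged here. Cz03g01250 had 31.8, 52.9, 37.5 and 37.5 CPM in AZD, 5.59, 3.65, 11.5 and 10.1 CPM in Glu and 1.47, 1.85 and 2.34 CPM in GA, with no overlap between the groups. Cz11g05100 had 3.69, 5.69, 4.82 and 3.98 CPM in AZD, 0.498, 0.419, 0.646 and 0.665 CPM in Glu and 0.0948, 0.212 and 0.177 CPM in GA, again with no overlap. GA against AZD gave -4.78 ± 0.44 (SE; adjusted p = 5.06e-11) and GA against Glu -1.72 ± 0.50 (SE; adjusted p = 0.00251).

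The 25 genes above both held a median of 5.99 CPM in GA, against 2.62 in AZD and 2.18 in Glu. Their fall against None was smaller, with a median of -3.28. Cz02g27160 stood highest over Glu, with 0.948, 1.32 and 1.89 CPM in GA, 0.262, 0, 0.214 and 0.542 CPM in AZD and 0.0866, 0.0186, 0.161 and 0 CPM in Glu (log2 4.42 ± 0.45 SE, adjusted p = 1.07e-10, against Glu). Its GA libraries were above all AZD and Glu libraries and below all None libraries, which had 11.8, 12.6, 12.9 and 14.1 CPM. Cz10g14010 was next, at 2.69 against Glu and 3.11 against AZD. For Cz12g02090, the most abundant of the 194 genes in GA at 24 h, the values were 1.22 and 1.09.

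In the 25 genes between the treatments the order was AZD, GA, Glu from low to high, with medians of 0.481, 1.43 and 7.23 CPM. They also had the highest median in None at 24 h, 146 CPM. Cz03g21010, UNPLg00440, Cz17g15130 and Cz09g27120 are of this kind. Cz06g16060 is another, with 0.157, 0.106, 0 and 0.0602 CPM in AZD, 0.735, 0.423 and 1.20 CPM in GA and 2.84, 2.10, 1.80 and 2.05 CPM in Glu. The groups did not overlap, and GA differed from AZD by 3.20 ± 0.45 (SE; adjusted p = 3.42e-07). Cz02g12170 had no count in AZD, 0.0948, 0.0794 and 0.236 CPM in GA, which is 19 counts in all, and 0.715, 0.186, 0.484 and 0.181 CPM in Glu. Its GA level was at least 5.72-fold above AZD, from a floor of 3 counts over the AZD libraries (adjusted p = 0.000501). GA and Glu overlapped for this gene, and its call against Glu (-1.40) was lost without Glu replicate 1 (-0.94) and in a fit of the 2 groups alone (-1.55).

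**Figure D4:**
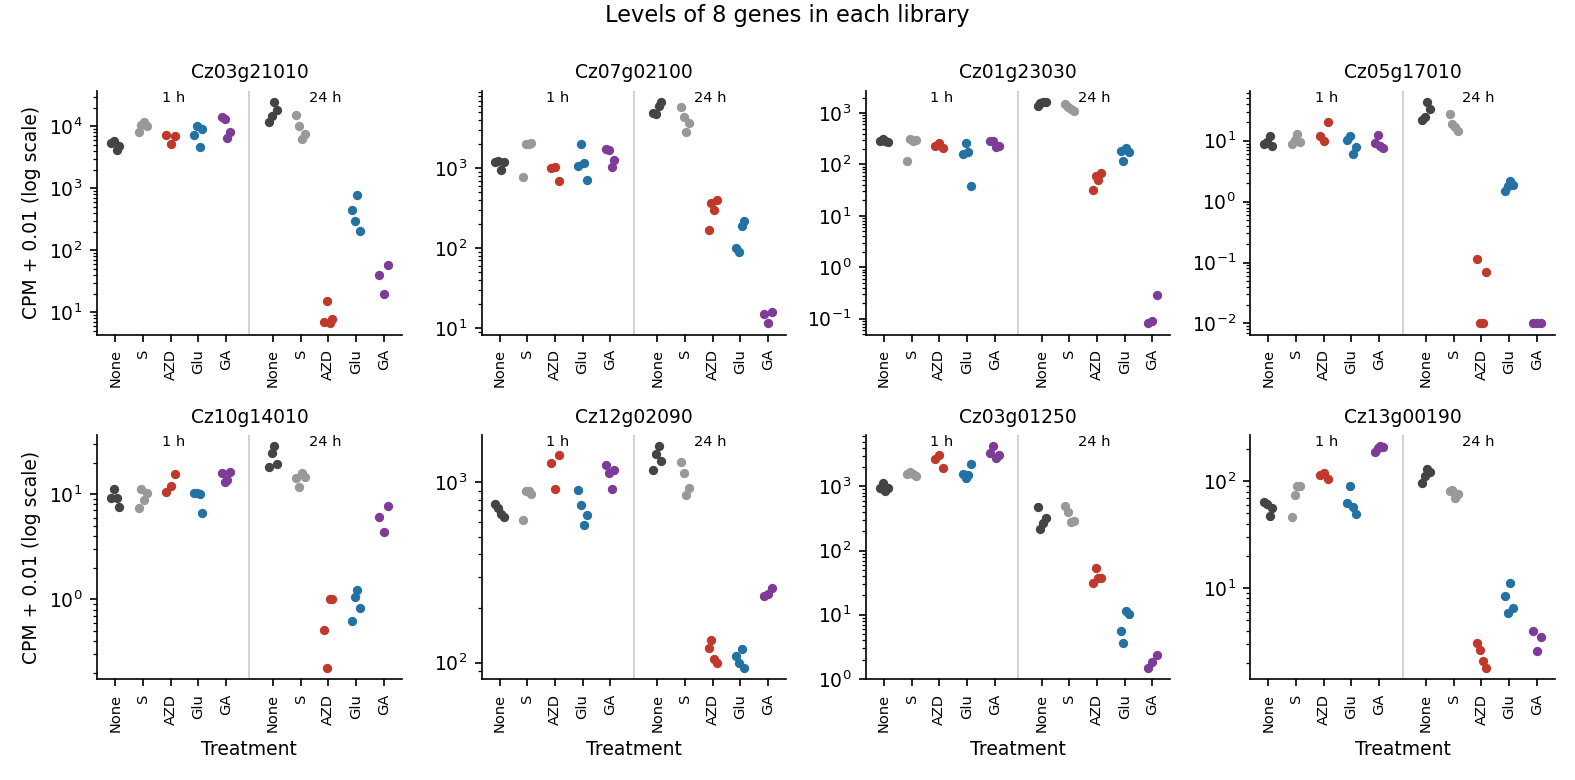
Levels of 8 of the genes in each of the 38 libraries, as CPM plus 0.01 on a log scale, with the 5 treatments at 1 h on the left and at 24 h on the right of each panel. The panels show the orders of AZD, Glu and GA at 24 h described in the text: AZD lowest for Cz03g21010, GA lowest for Cz07g02100 and Cz01g23030, and GA highest of the 3 for Cz10g14010 and Cz12g02090.

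The genes that fell with glucose or with AZD but not with both were set beside them. Under the same limits at 1 h, 22 genes had L of AZD against S at or below -3 at 24 h with L of Glu against None within 1 of 0, and 45 had the reverse. In GA against None at 24 h all 22 of the first kind were lower, with a median of -4.18. Of the 45 glucose-only genes, 33 were lower and 3 higher, with a median of -1.96, and 37 of the 45 stood higher in GA than in Glu. The 194 genes lay lower in GA than either (median -6.08). Each set was chosen by its AZD and Glu values, and the difference between the sets was not tested.

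At 1 h the direction of GA against None depended on the scaling, and on neither scaling did the genes reach the low levels of 24 h. Of the 194, 107 were called in GA against None (66.7% of all genes were), 106 of them higher (37.0% of all genes) and 1 lower (29.7%). With library totals in place of TMM sizes, however, 79 were lower and 4 higher, and 9012 of the 12142 genes tested were called in either direction. The TMM factors of the GA libraries at 1 h were 0.570 to 0.664 and those of None 1.17 to 1.20, so the sign at 1 h rests on the scaling. Relative to the median of all genes the 194 lay 0.45 higher with TMM and 0.44 higher with library totals, at 0.58 against 0.13 with TMM and at -0.39 against -0.84 with library totals. With S in place of None as the reference they lay 0.14 higher (0.25 against 0.11), and 77 were called, 67 higher and 10 lower. Of the 12142 genes tested, 7961 were called with that reference. Leaving out 1 library gave 69 to 79 calls, against 7579 to 7707 among all genes tested. The lowest counts were 69 without GA replicate 3, GA replicate 4 or None replicate 4, and 71 without None replicate 3. Rises of at least 2-fold were found in 23 of the 194 genes. The share of all genes with such rises was not counted.

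Cz07g19020 and Cz13g00190 had the largest rises at 1 h. Cz07g19020 had 462, 479, 408 and 453 CPM in None and 2129, 2462, 1075 and 1229.8 CPM in GA (log2 1.94 ± 0.28 SE, adjusted p = 2.10e-07). It stood at 1176, 1209 and 729 CPM in AZD and 622, 665, 669 and 545 CPM in Glu. Every GA library was above every None and Glu library, while the ranges of GA and AZD overlapped. Replicates 1 and 2 of GA were above replicates 3 and 4. S was at 772 ± 285 CPM (SD, n = 4), and S against None gave 0.78 ± 0.27 (SE; adjusted p = 0.273 in edgeR's test). At 24 h the gene was at 535 ± 139 CPM in None (n = 4) and 9.18 ± 2.43 in GA (n = 3). Cz13g00190 had 64.1, 61.2, 47.8 and 56.6 CPM in None, 115, 119 and 105 CPM in AZD, 63.00, 90.5, 57.8 and 49.1 CPM in Glu and 186, 206, 213 and 208 CPM in GA at 1 h. The GA libraries were above all others at that time (log2 1.83 ± 0.20 SE, adjusted p = 5.34e-10), and at 24 h GA was below None (log2 -5.11 ± 0.26 SE, adjusted p = 1.86e-18).

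Cz02g09070 was the gene called lower at 1 h, with 1.97, 2.59, 3.25 and 2.17 CPM in None and 0.570, 0.830, 0.449 and 0.399 CPM in GA (log2 -2.20 ± 0.51 SE, adjusted p = 0.00036). AZD, with 0.888, 1.13 and 0.904 CPM, and Glu, with 0.620, 1.33, 0.368 and 0.211 CPM, were below every None library too, while S, with 0.441, 4.05, 1.03 and 1.26 CPM, overlapped with None. By the rule its L of Glu against None at 1 h was -0.94, while the value fitted without the added 1 CPM was -2.02. At these levels, near the added 1 CPM, the gene met the limit at 1 h although it stood lower with glucose already. Its None libraries at 24 h had 25.9, 26.9, 26.8 and 24.1 CPM, each above every library at 1 h.

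GA against None was lower at 24 h than at 1 h in all of these genes. The difference between GA and None at 24 h less that at 1 h was called in 194 of 194 (68.8% of all genes), all lower (35.0% of all genes), with a median of -6.67 against 0.01 over all genes. The smallest difference was -2.01, for Cz03g18180. The time goes with the title prefix here, so a difference between the times is also one between the prefixes.

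**Figure D5:**
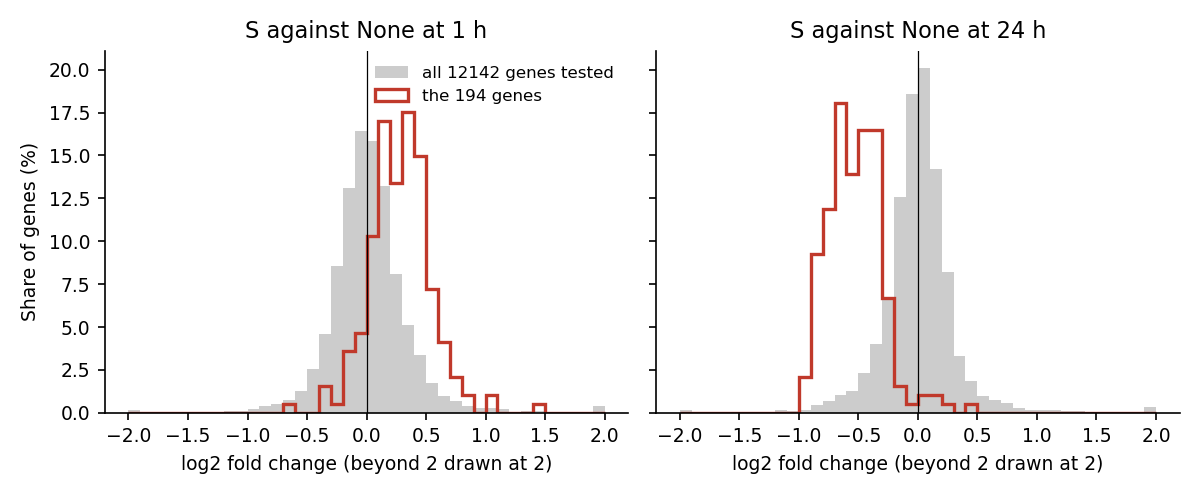
Share of genes (%) by log2 fold change of S against None at 1 h (left) and 24 h (right), for the 194 genes (red line) and all 12142 genes tested (grey). At 24 h the 194 genes lie to the left, with a median of -0.54, and at 1 h to the right, with a median of 0.28.

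S against None asks whether the 2 groups that the rule used as comparators stood at one level. Both entered the rule at 24 h as high groups, None in the Glu value and S in the AZD value, so a gene with a high None or S level by chance was more likely to be chosen, and the choice itself can shift this comparison. Its part in the values below was not tested, and they are given as a description of the chosen genes. At 24 h S was below None for 188 of the 194 genes by fitted value, against 48.4% of all genes tested, with a median of -0.54 against 0.01. The test called 12 of them (0.955% of all genes were called), all lower in S (0.552%), none of them 2-fold. At an unadjusted p under 0.05 there were 123 (63.4%), against 1301 among all genes tested (10.7%). In the sets chosen by 1 fall the medians were -0.16 for the 22 AZD-only genes and -0.28 for the 45 glucose-only genes. Every S library was below every None library for 82 of the genes, against 4.25% of all genes. The number called moved widely when 1 library was left out, from 0 to 22. It was 0 with S replicate 3 left out, 1 with S replicate 4 or with None replicate 2, 3 or 4 left out, 3 and 8 when S replicates 2 and 1 were dropped in turn, and 22 with None replicate 1 dropped. None replicate 3 was the highest None library for 129 of the genes and None replicate 1 the lowest for 146.

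UNPLg00164 and Cz18g05090 differed most among those called. Their S and None values at 24 h were also used by the rule, so the choice can shift them, and they too are a description. UNPLg00164 had 15.96, 23.8, 24.7 and 24.8 CPM in None and 13.3, 11.3, 12.96 and 10.2 CPM in S (log2 -0.90 ± 0.22 SE, adjusted p = 0.0389). Cz18g05090 had 12.8, 15.2, 16.5 and 17.3 CPM in None and 7.40, 10.3, 9.43 and 6.73 CPM in S (log2 -0.87 ± 0.22 SE, adjusted p = 0.0469). In both every S library was below every None library, and the call was lost in 6 of 8 fits that left out a library for UNPLg00164 and in 7 of 8 for Cz18g05090. Both calls were also lost with the replicate number as a block (-0.91 and -0.87), in a fit of the 2 groups alone (-0.89 and -0.87) and with library totals (-0.84 and -0.80), and that of Cz18g05090 with no filter on low counts (-0.85). For Cz03g21010, with the highest level, S against None gave -0.83 ± 0.35 (SE; adjusted p = 0.366), and S replicate 1 lay within the None range.

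At 1 h the sign was the other way, with a median of 0.28 over the 194 genes and 0.01 over all. Of the 194, 0 passed edgeR's test (0.0659% of all genes did). At an unadjusted p under 0.05 there were 44 (22.7%), against 1493 of all genes tested (12.3%), and DESeq2 called 1 of the 194 and 71 of all genes. The None and S libraries at 1 h were used by the rule too, as comparators. S replicate 1 at 1 h, the library farthest from its group, was the highest S library for 68 of the genes and the lowest for 81. For Cz06g15230 it had 65.5 CPM against 11.8 to 13.7 in the other S libraries. That gene is also the nearest to the threshold among the members, and the value of S replicate 1 entered its limit at 1 h.

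The IDs of the 194 genes were spread over 19 of the 20 ID prefixes. The prefix UNPL, whose meaning the table does not give, held 23 of them, 4.65% of its 495 genes, against 1.56% of all genes. Of the 229 genes with prefix Cz19, 0 were chosen. Neighbours in the order of IDs were both chosen in 10 runs with 25 genes in all (12.9% of the 194), which says nothing of their distance in the genome, not given here. The longest were UNPLg00650 to UNPLg00653 and a run of 4 from UNPLg00662 to UNPLg00674. In the first run the levels in None at 24 h were 132.5, 110, 83.5 and 79.9 CPM. Those in GA were 0.231, 0.618, 4.12 and 0.0465 CPM, so in this run like levels in None went with unlike levels in GA. The other run of 4 had unlike levels in None, 322, 166, 93.0 and 21.1 CPM, and low levels in GA, 0.802, 0.787, 0.414 and 0.116 CPM. Runs were picked out after the genes were chosen, and were not tested.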

How the data were processed

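Poly(A) RNA of frozen pellets was sequenced as read pairs and trimmed with BBDUK, per the labels' protocols. Salmon and DESeq2 1.46.0 appear in the submitters' processing notes, which state no role for either. No genome build, annotation or strand setting is given in the sources used. What the authors deposited are estimated counts of each gene, with no scaling for depth. The table held 12459 genes in 38 columns, 48 of them with no count, and 0 columns of other samples. They were rounded to whole numbers for the tests. Totals per library ran from 12414643 to 106150532. Exact 95% Poisson intervals and the floor of 3 counts over a group cover counting error only, and amplified fragments are not independent molecules.

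The 194 genes, the comparison sets and the rule for named genes were chosen with earlier results of these data known. Group means, log2 ratios and the median were taken from CPM by column total, as the rule asks. Tests used edgeR 4.0.16 in R 4.3.3: filterByExpr (minimum count 10, minimum total 15) left 12142 genes, libraries were scaled by TMM, and 1 quasi-likelihood model was fitted, with 10 group means (28 residual degrees of freedom, prior 5.36, common biological coefficient of variation 0.20). SE was approximated as the log2 fold change divided by the square root of its F statistic, an approximation that is poor for large folds and low counts. The method was tested on simulated counts with changes put into a small part of the genes, in GA at 24 h only. Such counts do not test the scaling where many genes change. Named genes were those highest in None at 24 h, at the extremes of each tested contrast, with the widest gap between the AZD and Glu values, and nearest to the limits of the rule. Any other gene named is said to be chosen after its values were seen, or is a count's exception or a run's member. Alternatives were the DESeq2 1.42.0 Wald test, other scalings, no filter, the groups compared only, a replicate block, S as the reference, other settings of the rule, and leaving out each library in turn. The labels do not say whether same-numbered replicates shared an origin. The deviations of same-numbered replicates from group means did not go together (median correlations of -0.03 at 1 h and -0.06 at 24 h), so no pairing was used.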

Additional observations from a re-analysis of the deposited data

Results flagged for a closer look

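In groups of 4 libraries, 13 of 192 combinations of a named gene and a group (6.77%) had 1 library far from the others, where chance gives about 1 in 20. S replicate 1 at 1 h, the library farthest from its group, was the one in 6 of them. Its level was the lowest for Cz07g02100 (773 CPM against 2019 to 2075 in the other S libraries), Cz01g23030 (116 against 282 to 309) and Cz12g02090 (620.4 against 862 to 897). It was the highest for Cz03g18180 (53.2 CPM against 34.8 to 37.0), Cz11g05100 (540.0 against 208 to 226) and Cz06g15230 (65.5 against 11.8 to 13.7).

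Glu replicate 4 at 1 h, the next farthest library, was lowest for Cz10g14010 (6.62 CPM against 10.03 to 10.3 in the other Glu libraries) and highest for Cz06g15230 (43.1 against 10.4 to 15.8). Glu replicate 2 at 1 h was highest for UNPLg00298 (35.6 CPM against 15.3 to 15.7) and Cz06g16060 (48.8 against 33.1 to 34.8). At 24 h None replicate 1 was lowest for UNPLg00164 (16.0 CPM against 23.8 to 24.8), AZD replicate 2 highest for Cz03g21010 (15.4 against 6.61 to 7.86) and AZD replicate 4 highest for Cz02g09070 (2.26 against 0.744 to 0.964).

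The response to GA differed between the times in 194 of 194 genes, against 68.8% of all genes tested. The contrast was that of the differences at 24 h and 1 h in edgeR's quasi-likelihood test. The title prefix changes with the time, and its part in this difference was not tested. The None libraries at 24 h were also used by the rule, as a high group.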

How the results depend on the processing

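The count of 194 in GA against None at 24 h, and in its difference from 1 h, was the same under every alternative run, and the calls of GA against Glu (145 to 159) and against AZD (70 to 97) stayed within 1.5 times of the values reported. The lowest of both came from fits of the groups compared only, which tested 191 and 160 of the genes. Among all genes tested, the calls ran from 8862 to 9518 against Glu and from 4812 to 6164 against AZD. For GA against None at 24 h they ran from 8716 to 9438, and for its difference from 1 h from 8012 to 8798. At 1 h, GA against None depended on the scaling. With library totals alone 83 of the 194 genes were called (9012 of all genes tested were), 79 of them lower, and the median became -0.39. The values of Cz10g14010 (-0.30), Cz12g02090 (-0.29), UNPLg00164 (-0.0396) and UNPLg00440 (-0.22) then turned negative. That of UNPLg00440 did so with S as the reference too (-0.25), where 77 of the 194 and 7961 of all genes tested were called. Leaving out 1 library gave 69 to 79 (7579 to 7707 among all genes tested). S against None at 24 h went from 12 calls to 39 with DESeq2 (262 among all genes tested). It gave 24 (243 among all genes) when both distant 1 h libraries (S replicate 1, Glu replicate 4) were left out together, chosen after seeing the data. A fit of its groups only gave 2 (32), library totals 1 (51), the replicate block 1 (35), and leaving out 1 library 0 to 22 (20 to 176). At 1 h S against None gave 1 with DESeq2 (71 among all genes), with the groups compared only (29) and without both distant libraries (156). The cause was not tested. The replicate block gave 194 in GA against None at 24 h, 157 against Glu, 89 against AZD and 99 at 1 h. Among all genes tested it called 8984, 9060, 5255 and 7888, in the same order. The rule kept 229 genes with 0.5 CPM added, 135 with 2 CPM, 191 with TMM sizes, 236 with None as the comparator of AZD, 202 without the limit at 1 h, and 187 to 200 with 1 library left out. Of 1596 combinations of a named test and a setting, 1540 kept their direction and call, 51 lost the call and 5 reversed.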
